A study of Mus musculus with 9 samples.

Results

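The cytochrome P450 genes of families 1 to 4 were followed in the liver of male Wistar rats. They were taken from the table of gene counts as every gene whose symbol begins with Cyp, a family number from 1 to 4 and a subfamily letter, which gave 48 of the 19686 genes listed. Family 1 had 3 genes, family 2 had 25, family 3 had 4 and family 4 had 16, in 19 subfamilies. The rats of all groups were male, were fasted for 12 h before sacrifice and were sampled after 8 weeks. The control group drank purified water and the model group a 15% fructose drink, a diet used to bring about metabolic syndrome, and both were gavaged with saline. The third group, labelled DSS, drank the same fructose and received by gavage, in place of saline, a 50% methanol extract of Danggui-Shaoyao-San, a Chinese herbal formula, at 1.8 g/kg. No group received the extract without fructose, so an effect of the extract in rats drinking water was not measured. Each group had 3 libraries, 9 in all, and the sources do not say whether each came from 1 rat, so the tests measure the spread between these libraries.

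Cytochrome P450 enzymes are heme proteins of the endoplasmic reticulum that insert 1 oxygen atom into their substrate, using electrons that NADPH passes to them through P450 oxidoreductase. The hepatocyte is their main site. Families 1 to 3 oxidize drugs, plant compounds, steroids and retinoids, and family 4 hydroxylates fatty acids and eicosanoids at the end of the chain. Receptors for foreign compounds and lipids set the transcription of many of them: the aryl hydrocarbon receptor acts on Cyp1a, CAR on Cyp2b, PXR on Cyp3a and PPAR alpha on Cyp4a. In the rat several of them also differ between the sexes under the pattern of growth hormone, Cyp2c11 being the classic male form and Cyp2c12 the female one.

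The libraries held 14345819 to 26837227 counts, of which the P450 genes took 1.50% to 2.31%. Levels are given as CPM, counts scaled to library size with TMM factors over the 9 libraries. Gene lengths were not used, so levels are compared here between groups, not between genes. Model library 1, the deepest, lay apart from the other 8 on the second principal component of all genes, at -59.2 against -16.7 to 19.8. The value without it is given for some of the printed values, not for every value that depends on it. The 8 hepatocyte markers, led by albumin, were all detected, with a summed level of 135697 to 172914 CPM in the control libraries, 173476 to 224687 in the model libraries and 170742 to 215222 in the DSS libraries, so that control and model did not overlap. None of them was called. At an unadjusted p under 0.05, 3 were higher than control in the DSS group, against 11.9% of all genes. In the model group 1 was higher and 1 lower, against 6.84% and 6.36%. The part of these markers in the P450 values was not tested. The summed levels of the leukocyte, endothelial, stellate, bile duct, red blood cell, pancreas, intestine and kidney markers overlapped between all groups, with the pancreas list as an exception, where the model libraries (19.4 to 28.9 CPM) lay above the control libraries (14.1 to 17.0 CPM). No gene of these 8 lists was called by edgeR in any comparison, and at most 1 a list was higher and 1 lower at an unadjusted p under 0.05. The pancreas list had 2 tested genes and the intestine and kidney lists 1 each, so such a count could not be larger or tells little there. Of the 2 pancreas genes, 1 was higher than control at that p in the model group and 1 in the DSS group, against 6.84% and 11.9% of all genes.

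The thresholds of the study were used for a call: an FDR of at most 0.01 in edgeR together with a log2 fold change of 0.5 or more in either direction. The study applied them with DEGseq and DESeq, so a call here is not a call of the study. The edgeR test was the stricter one: in model against control it called 0.04% of all genes higher, where DESeq2 called 1.03% at the same thresholds. A filter on low counts left 40 P450 genes for all 3 comparisons and 1, Cyp4f37, for the model against the control group. The other 7 genes, Cyp1b1, Cyp2b12, Cyp2b21, Cyp4f5, Cyp4f18, Cyp4f40 and Cyp4x1, had at most 26 counts in any library and were not tested. Cyp1b1, which metabolizes estrogens and polycyclic hydrocarbons, had 1 to 8 counts, and Cyp4x1 had 0 to 3.

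Against the control group, the DSS group had 1 P450 gene that rose, Cyp3a23/3a1, and 1 that fell, Cyp2c22. Over all 12633 genes tested, 0.657% were called higher and 0.823% lower. At an FDR of at most 0.05 the numbers were 4 higher and 2 lower (3.07% and 3.29% of all genes). At an unadjusted p under 0.05, 17 of 40 were higher and 5 lower, against 11.9% and 12.5% of all genes. In 19 genes every DSS library lay above every control library, and in 4 below, against 15.1% and 14.9% of all genes. The median log2 fold change of the 40 genes was 0.33, and that of all genes -0.01. DESeq2 called 8 higher and 2 lower, against 3.08% and 3.01% of all genes. At each of these thresholds the share of higher P450 genes was above that of all genes. The share of lower P450 genes was also above that of all genes among edgeR calls (2.5%), at an FDR of at most 0.05 (5%) and among DESeq2 calls (5%). It equalled that of all genes at an unadjusted p under 0.05 (12.5%) and was below it for libraries without overlap (10%). Scaled by library size alone, which moved the median of all genes by -0.14, 9 were higher and 6 lower at an unadjusted p under 0.05, against 5.61% and 20.3% of all genes. On that scale 10 genes lay wholly above control and 6 wholly below, against 7.24% and 24.3%, and the separation from control was lost for Cyp2a1, Cyp2b3, Cyp2c23, Cyp2d5, Cyp2e1, Cyp2j4, Cyp2s1, Cyp4f4 and Cyp4f39. The median of 0.33 was 0.14 without DSS library 1, and the lowest and highest values with 1 library left out were 0.14 and 0.41. In bulk RNA, a change in the number of cells of a type and a change of RNA per cell cannot be told apart.

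Against the model group, no P450 gene in the DSS group was called by edgeR, where 0.056% of the 12502 genes tested were called higher and 0.08% lower. At an FDR of at most 0.05, 2 of 40 were higher, Cyp2b2 and Cyp2c24, against 0.12% of all genes, and 0 were lower, against 0.336%. At an unadjusted p under 0.05, 8 were higher and 2 lower, against 3.54% and 4.49%. The libraries did not overlap in 9 genes that were higher and 1 that was lower, against 6.22% and 7.69%. DESeq2 called 4 higher (0.328% of all genes) and 0 lower (0.848%). The median log2 fold change was 0.14, against 0.00 over all genes. It moved between 0.03 (without DSS library 1) and 0.27 (without model library 3) when 1 library was left out, and was 0.05 without model library 2. By library size alone, 10 were higher and 1 lower at an unadjusted p under 0.05, against 2.62% and 4.84% of all genes. The model group was a control for this comparison and a test group for the next, so these share its libraries.

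Fructose alone gave no P450 gene called by edgeR, where 0.04% of the 12486 genes tested were called higher and 0.04% lower, and 0 at an FDR of at most 0.05, against 0.296% and 0.304%. At an unadjusted p under 0.05, 5 of 41 genes were higher in the model group and 5 lower, against 6.84% and 6.36% of all genes. The libraries did not overlap in 4 genes that were higher and 4 that were lower, shares close to the 11.2% and 9.86% of all genes; by library size alone these were 2 and 9, against 5.36% and 16.8%. DESeq2 called 0 higher (1.03% of all genes) and 2 lower (1.03%), Cyp2e1 and Cyp2c24. The median log2 fold change was 0.11, and -0.03 without model library 1, so the list as a whole had no stable direction here.

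**Figure D1:**
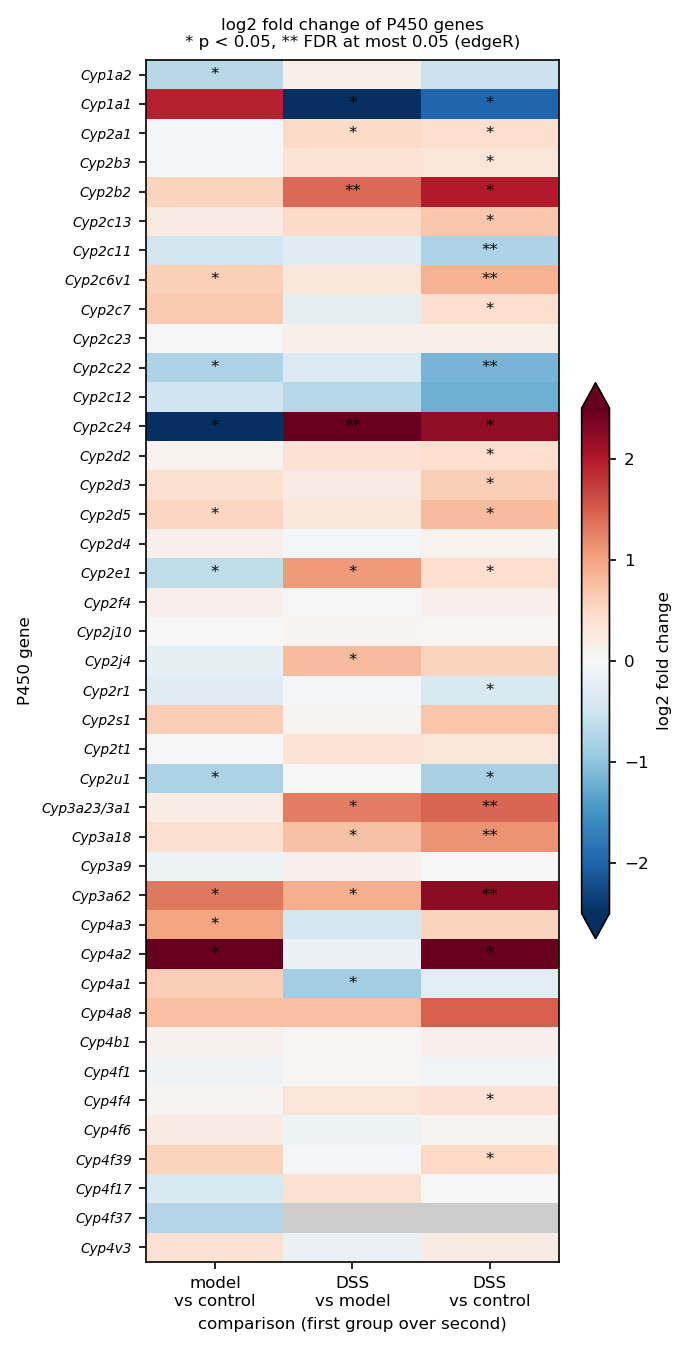
Fitted log2 fold changes of the 41 tested P450 genes (rows, ordered by subfamily) in the 3 comparisons (columns); red is higher and blue lower in the first group named, colours end at 2.5, grey was not tested, 1 star marks an unadjusted p under 0.05 and 2 stars an FDR of at most 0.05 in edgeR. The rows of Cyp3a23/3a1, Cyp3a18, Cyp3a62, Cyp2b2 and Cyp2b3 are red in both columns of the DSS group, and 17 genes were higher than control there at an unadjusted p under 0.05.

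Summed, the P450 genes reached 15549, 19021 and 19568 CPM in the control libraries, 20831, 14327 and 19665 in the model libraries and 23263, 21789 and 22023 in the DSS libraries. The 3 DSS libraries were the 3 highest of the 9 on this scale. As plain shares of all counts the groups overlapped, since control library 3, at 2.05%, lay above DSS library 3. Their mean was 22358 ± 793 CPM (SD, n = 3), that of the control group 18046 ± 2179.5 and that of the model group 18274 ± 3467. The exact two-sided permutation test over libraries gave p = 0.1 for DSS against control and for DSS against model, the smallest value 3 against 3 can give, and p = 0.8 for model against control. The small difference between model and control turned from 228 CPM to -1724 when levels were scaled by library size alone. Of the 41 P450 genes with a mean count of at least 10, 23 had their highest group mean with DSS, 9 with model and 9 with control, where 32.6%, 30.8% and 36.6% of all 12562 such genes did.

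The Cyp3a genes, which oxidize a wide range of drugs and steroids and are classic targets of PXR, lay highest in the DSS group as a sum. It was 973, 1222 and 1307 CPM in the control libraries, 1771, 1201 and 1252 in the model libraries and 3140.1, 2756 and 2548 in the DSS libraries. No DSS library overlapped with any other (exact permutation p = 0.1 against each group), and the mean of the DSS group, 2815 ± 300.5 CPM, stood beside 1167 ± 173 for control and 1408 ± 315 for model.

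Cyp3a23/3a1 (ENSRNOG00000032560), the PXR-inducible form of rat liver, was called. Its level was 604, 627 and 606 CPM in the control libraries, 1029, 518 and 538 in the model libraries and 1731, 1668 and 1629 in the DSS libraries. The control libraries were within a few percent of each other, model library 1 stood above the other model libraries, and all DSS libraries lay far above the rest. It rose in the DSS group over control by a log2 fold change of 1.45 (SE 0.113, FDR 0.000325), a ratio of means of 2.74, and stayed called in each of 13 alternative analyses. DSS over model gave a log2 fold change of 1.28 (SE 0.27, FDR 0.141), which was not called; without model library 1 it was 1.67 with an FDR of 0.00635, which is called.

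Cyp3a18, a male-predominant steroid hydroxylase, was at 319, 508 and 622 CPM in the control libraries, 676, 623 and 624 in the model libraries and 1314, 952 and 894 in the DSS libraries. The DSS libraries again lay above all others. Its log2 fold change was 1.12 (SE 0.261, FDR 0.0438) over control and 0.72 (SE 0.182, FDR 0.254) over model, neither at the calling threshold. Cyp3a62 was sparse, at 2.45, 2.44 and 5.45 CPM in the control libraries, 13.8, 7.12 and 4.49 in the model libraries and 19.7, 11.4 and 16.9 in the DSS libraries, and model library 3 lay within the range of control. Its log2 fold change over control was 2.23 (SE 0.357, FDR 0.0147) in the DSS group and 1.32 (SE 0.477, FDR 0.295) in the model group, which was 0.75 without model library 1. Cyp3a9 was at 47.6, 84.7 and 73.1 CPM in the control libraries, 52.7, 52.5 and 84.5 in the model libraries and 75.3, 124 and 7.18 in the DSS libraries, and DSS library 3 was the lowest of all 9. Because Cyp3a genes resemble each other closely, reads that fit more than 1 of them may have been lost or shared. Cyp3a2 was not analysed here.

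**Figure D2:**
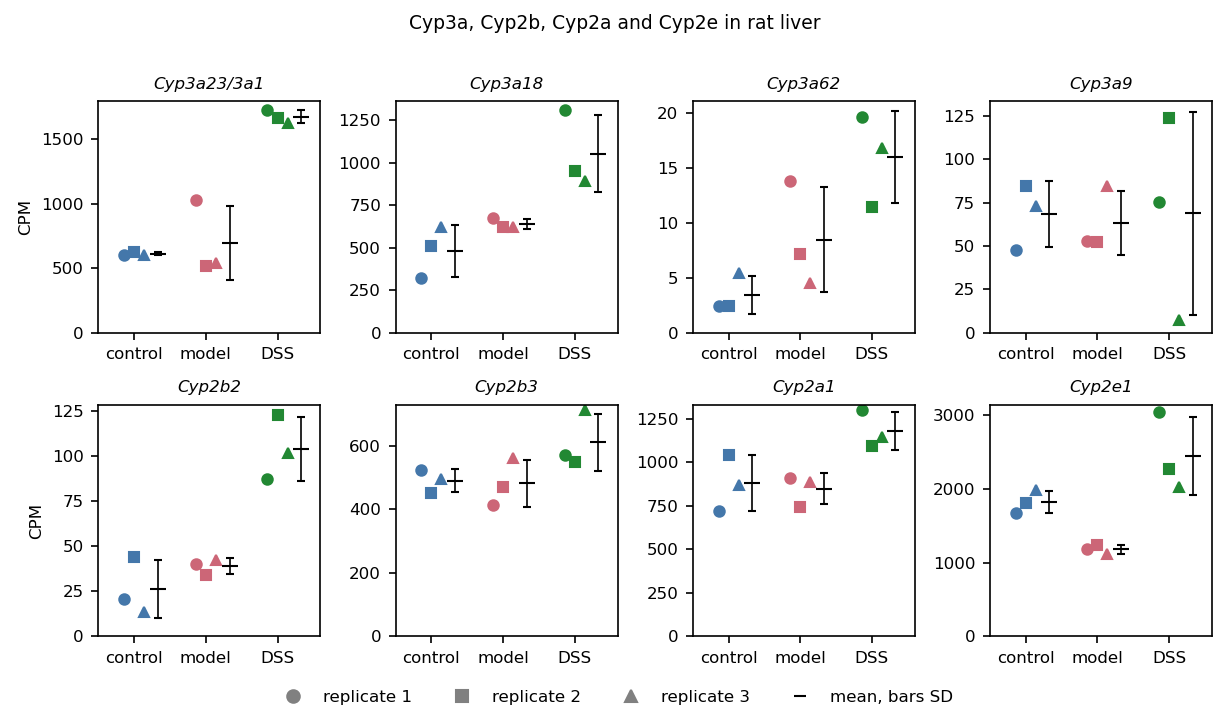
CPM of each library (points, shape by replicate number) in the control, model and DSS groups for the 4 Cyp3a genes, Cyp2b2, Cyp2b3, Cyp2a1 and Cyp2e1; the dash and bar beside each group are its mean and SD, n = 3, and every axis starts at 0. The DSS points of Cyp3a23/3a1 sit between 1629 and 1731 CPM, with control points between 604 and 627, and the model points of Cyp2e1 lie below all others.

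The Cyp2b genes are the classic targets of CAR, the receptor through which phenobarbital acts. Cyp2b2, the inducible form, was at 20.7, 44.1 and 13.8 CPM in the control libraries, 40.2, 33.8 and 42.3 in the model libraries and 87.2, 123 and 102 in the DSS libraries. The DSS libraries lay above all others, and the control and model libraries overlapped. Its log2 fold change in the DSS group was 1.43 (SE 0.168, FDR 0.0149) over model and 1.98 (SE 0.451, FDR 0.0647) over control, with ratios of means of 2.68 and 3.96. DESeq2 called both, with FDR of 2.94e-10 and 0.0021. Cyp2b3, a form known not to respond to phenobarbital, was at 523, 451 and 495 CPM in the control libraries, 413, 470.2 and 559.8 in the model libraries and 571, 547 and 713 in the DSS libraries. Its DSS libraries lay above the control libraries by a narrow gap, with a log2 fold change of 0.31 (SE 0.137, FDR 0.201), and of 0.20 without DSS library 3. Cyp2b1, whose sequence is nearly that of Cyp2b2, was not analysed here, and reads from it may have been counted as Cyp2b2 or lost.

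The other targets of CAR and PXR were read from a list of transporters, conjugating enzymes and other genes, such as dehydrogenases and a carboxylesterase. Of this list 10 genes were tested. In the DSS group all 10 were on the higher side of control, with a median log2 fold change of 0.75. Of them 1 was called, against 0.657% of all genes called higher. At an unadjusted p under 0.05, 6 were higher, against 11.9% of all genes. Against the model group 7 of 10 were on the higher side, with a median of 0.58. At an unadjusted p under 0.05, 6 were higher and 0 lower there, against 3.54% and 4.49% of all genes. Gstm1, a glutathione transferase, rose over control from 829.8, 805 and 846 CPM to 1428, 1610.0 and 1274, a log2 fold change of 0.79 (SE 0.127, FDR 0.00943), a call that was lost when any 1 library was left out. Ces2c, a carboxylesterase, was at 0.683, 1.31 and 1.33 CPM in the control libraries, 0.688, 0.642 and 0.554 in the model libraries and 2.65, 2.91 and 2.44 in the DSS libraries, so that the DSS libraries lay above all others. Its log2 fold change was 2.08 (SE 0.302, FDR 0.036) over model and 1.29 (SE 0.323, FDR 0.0444) over control. Sult1b1, a sulfotransferase, was at 186, 258 and 226 CPM in the control libraries, 354, 341 and 461 in the model libraries and 326, 309 and 433 in the DSS libraries. Both fructose groups lay above control, and the DSS group had a log2 fold change of 0.67 (SE 0.172, FDR 0.0484). Nr1i2 and Nr1i3 encode PXR and CAR themselves. Nr1i2 was at 134, 166 and 159.7 CPM in the control libraries, 123, 106 and 129 in the model libraries and 113, 89.5 and 135 in the DSS libraries, with a log2 fold change of -0.45 (SE 0.161, FDR 0.124) for DSS over control and -0.36 (SE 0.149, FDR 0.342) for model over control. The Nr1i3 levels overlapped between all groups, at 16.6, 46.4 and 48.7 CPM in the control libraries, 40.2, 47.4 and 54.8 in the model libraries and 71.9, 44.8 and 34.4 in the DSS libraries. Neither receptor gene was called.

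Cyp2e1 oxidizes ethanol, acetone and other small molecules and has a pericentral place in the liver lobule. Its level was 1675, 1802 and 1982 CPM in the control libraries, 1186, 1238 and 1109 in the model libraries and 3038, 2271 and 2027 in the DSS libraries. With TMM factors the 3 groups did not overlap: the model group was lowest, the control group between and the DSS group highest. By library size alone the DSS and control libraries overlapped, while the model libraries stayed lowest. The log2 fold change was -0.63 (SE 0.147, FDR 0.117) for model over control, 1.06 (SE 0.187, FDR 0.0738) for DSS over model and 0.42 (SE 0.168, FDR 0.164) for DSS over control, the last being 0.23 without DSS library 1. None of these was called by edgeR; DESeq2 called the first and second, with FDR of 0.00135 and 2.1e-05.

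Cyp1a2, the main Cyp1a form of liver and also pericentral, was at 483, 776 and 730.3 CPM in the control libraries, 551, 328 and 357 in the model libraries and 560.4, 291 and 519 in the DSS libraries. The groups overlapped, though of the model libraries only library 1 lay within the control range. By library size alone all model libraries lay below all control libraries. The log2 fold change of model over control was -0.69 (SE 0.258, FDR 0.304), and ran from -0.97 to -0.55 when 1 library was left out. The 9 pericentral markers outside the P450 families 1 to 4 did not move as 1 group. Their summed level was 1060, 1087 and 1227 CPM in the control libraries, 755, 923 and 968 in the model libraries and 659, 622 and 799.8 in the DSS libraries, so that all fructose libraries lay below control and the model and DSS libraries overlapped. In the model group, 2 of 9 were higher and 2 lower at an unadjusted p under 0.05, and in the DSS group 0 of 8 were higher than control and 3 lower. Glul, the glutamine synthetase of the cells next to the central vein, was the most abundant of the 9. It was at 287, 362 and 450.3 CPM in the control libraries, 466, 680.1 and 564 in the model libraries and 428, 365 and 391 in the DSS libraries. In the model group Glul thus went against the sum, and the remaining markers together fell by more than the sum did. The 10 periportal markers had a summed level of 8672 to 9499.6 CPM in the control libraries, 6049 to 7944 in the model libraries and 6869 to 11388 in the DSS libraries, so that the model libraries lay below control. At an unadjusted p under 0.05, 2 of them were higher and 5 lower in model against control. Against the model group 3 were higher and 1 lower in the DSS group, and against control 2 and 2. The shares of all genes at that p, for both marker lists, were 6.84% higher and 6.36% lower in model against control. They were 3.54% and 4.49% in DSS against model, and 11.9% and 12.5% in DSS against control. The part of lobular zonation in the Cyp2e1 and Cyp1a2 levels was not tested.

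Cyp1a1, which is nearly silent in liver without an inducer, had 265 counts in model library 1 and 4 to 36 in each of the other libraries, or 0.763, 2.14 and 0.532 CPM in the control libraries, 11.4, 0.706 and 0.616 in the model libraries and 0.325, 0.324 and 0.208 in the DSS libraries. The DSS libraries were the lowest, with a log2 fold change of -1.98 (SE 0.61, FDR 0.0836) over control, on 6, 6 and 4 counts. At an unadjusted p under 0.05, 6.36% of all genes were lower than control in the model group and 12.5% in the DSS group. Of the 4 tested targets of the aryl hydrocarbon receptor outside the P450 genes, none was called by edgeR. In both fructose groups 1 of them was lower than control at that p. That gene was Nqo1, a quinone reductase, at 11.3, 11.1 and 8.97 CPM in the control libraries, 7.44, 7.83 and 6.16 in the model libraries and 6.17, 5.72 and 6.19 in the DSS libraries. Every control library lay above every other library, and the log2 fold change in the DSS group was -0.80 (SE 0.154, FDR 0.0186). The receptor gene Ahr was at 33.5, 31 and 19.8 CPM in the control libraries, 37.7, 42.4 and 42.4 in the model libraries and 54.4, 26.2 and 56.6 in the DSS libraries, with a log2 fold change of 0.54 (SE 0.196, FDR 0.297) for model over control, which was 0.34 without control library 3.

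The Cyp2c genes, which hydroxylate steroids, retinoids and many drugs, had 1 gene called, Cyp2c22. Their sum was 7627, 10015 and 10220.2 CPM in the control libraries, 10619.7, 6837 and 10453 in the model libraries and 8922, 9916 and 10344 in the DSS libraries, which overlapped. Of the 8 genes, 4 were higher and 2 lower than control in the DSS group at an unadjusted p under 0.05. The shares of all genes were 11.9% and 12.5%.

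Cyp2c22 (ENSRNOG00000021924), an enzyme that hydroxylates retinoic acid, was at 1135, 1808 and 1578 CPM in the control libraries, 969, 587 and 1088 in the model libraries and 611, 787 and 643 in the DSS libraries. All control libraries lay above all others, and the model and DSS libraries overlapped. It fell in the DSS group against control by a log2 fold change of -1.16 (SE 0.188, FDR 0.00973), and in the model group the value was -0.78 (SE 0.269, FDR 0.27). The call lay close to the threshold: the FDR was 0.0103 with DESeq2 size factors, 0.0313 with all 9 libraries in 1 fit and up to 0.0459 when 1 library was left out.

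Cyp2c11, the main male form, which hydroxylates testosterone, was at 2136, 2781 and 3393 CPM in the control libraries, 2723, 1900.3 and 1413 in the model libraries and 1699, 1600.5 and 1579 in the DSS libraries. The DSS libraries lay close together and below all control libraries, while model libraries spread over both ranges. The log2 fold change of DSS over control was -0.78 (SE 0.173, FDR 0.0304). Cyp2c6v1, which belongs to the phenobarbital-responsive part of the subfamily, went the other way. It was at 804, 1195 and 1071 CPM in the control libraries, 1618, 1215 and 1817 in the model libraries and 1915, 2057 and 1679 in the DSS libraries, with both fructose groups above control. Its log2 fold change was 0.87 (SE 0.168, FDR 0.0186) for DSS over control and 0.60 (SE 0.217, FDR 0.295) for model over control.

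Cyp2c13, another male form, was at 1205, 1937 and 2148 CPM in the control libraries, 2522, 1221 and 2436 in the model libraries and 1973, 2808 and 3767 in the DSS libraries, and the groups overlapped. Its log2 fold change of DSS over control was 0.68 (SE 0.289, FDR 0.2), and 0.45 without DSS library 3. Cyp2c7, a female-predominant form, had DSS libraries between 1264 and 1408 CPM, above the control libraries at 834 to 1101. Cyp2c12, the female form, spread widely within each group, from 46.5, 23.3 and 9.1 CPM in the control libraries, 16.4, 32.3 and 7.88 in the model libraries and 22.6, 7.23 and 4.47 in the DSS libraries. Among the 4 tested genes on a list of male-predominant P450 genes, Cyp2c11, Cyp2c13, Cyp3a18 and Cyp4a2, 3 were higher and 1 lower than control in the DSS group at an unadjusted p under 0.05, against 11.9% and 12.5% of all genes. Of the 3 on a list of female-predominant ones, Cyp2c12, Cyp2a1 and Cyp2c7, 2 were higher and 0 lower, beside the same shares. Both lists were made by hand and may lack other forms that differ between the sexes.

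Cyp2c24 had 18, 53 and 37 counts in the control libraries, 1, 0 and 6 in the model libraries and 212, 215 and 108 in the DSS libraries. As levels these were 0.723, 3.15 and 2.46 CPM in the control libraries, 0.043, 0 and 0.369 in the model libraries and 11.5, 11.6 and 5.62 in the DSS libraries. The groups did not overlap, with the model group lowest and the DSS group highest. The fitted log2 fold change was 6.15 (SE 0.711, FDR 0.0149) for DSS over model and -3.94 (SE 0.937, FDR 0.121) for model over control, and its size is uncertain because the model libraries held so few counts; the second was -6.03 without model library 3. DSS over control, where both groups had counts in every library, gave 2.22 (SE 0.537, FDR 0.0593). In the closely related Cyp2c genes, reads of 1 may be counted for another.

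**Figure D3:**
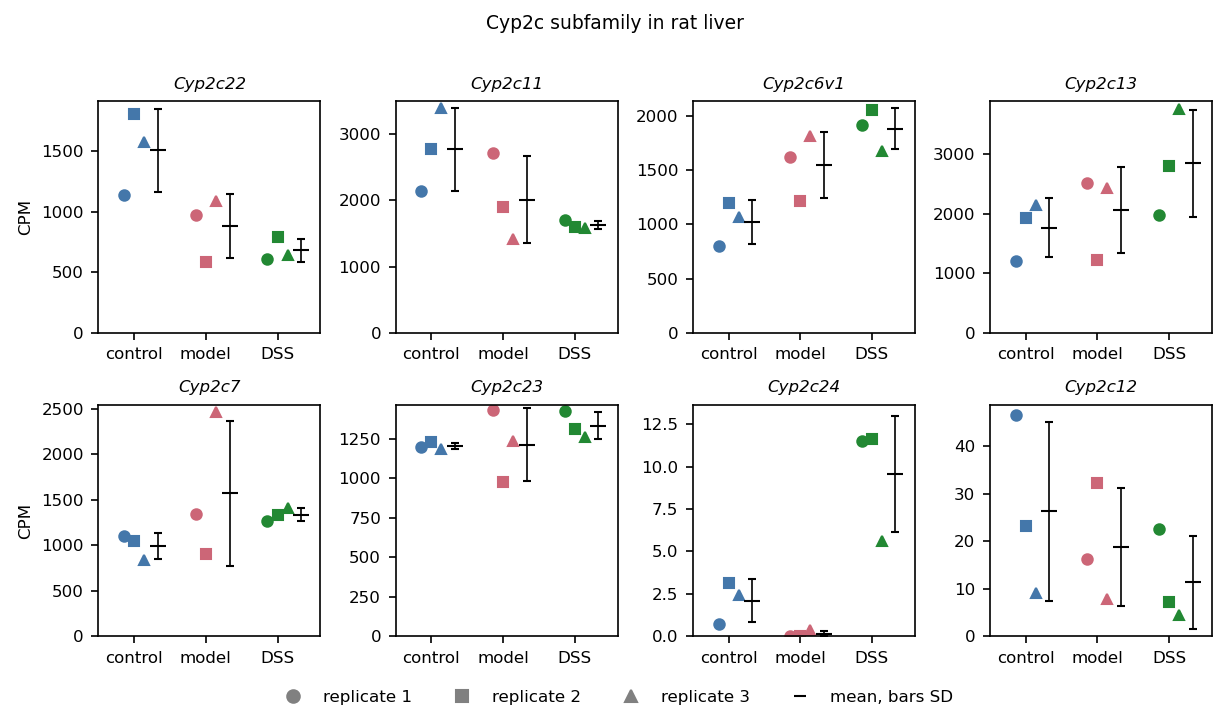
CPM of each library (points, shape by replicate number) in the control, model and DSS groups for the 8 Cyp2c genes; the dash and bar beside each group are its mean and SD, n = 3, and every axis starts at 0. Cyp2c22 and Cyp2c11 have their DSS points below every control point, Cyp2c6v1, Cyp2c7 and Cyp2c24 have them above, and Cyp2c12 spreads widely in each group.

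Cyp2a1, a testosterone hydroxylase, was at 724, 1045 and 869.8 CPM in the control libraries, 909.9, 746 and 889 in the model libraries and 1302, 1094 and 1146 in the DSS libraries. The DSS libraries lay above all others with TMM factors, though not above all control libraries by library size alone, and the log2 fold change was 0.42 (SE 0.158, FDR 0.144) over control and 0.48 (SE 0.155, FDR 0.438) over model. The Cyp2d genes, whose human relative handles many psychiatric and heart drugs, had a sum of 1953, 2062 and 2228 CPM in the control libraries, 2775, 2040.4 and 2569 in the model libraries and 3507, 2660.0 and 2876 in the DSS libraries. All DSS libraries lay above all control libraries (exact permutation p = 0.1).

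Of the 4 Cyp2d genes, 3 were higher than control in the DSS group at an unadjusted p under 0.05, against 11.9% of all genes. Cyp2d2 was at 1038, 1279 and 1243 CPM in the control libraries, 1469, 1029 and 1267 in the model libraries and 1704, 1507 and 1600.5 in the DSS libraries, with a log2 fold change of 0.43 (SE 0.132, FDR 0.0842) over control. Cyp2d3 was at 584, 583 and 667 CPM in the control libraries, 912, 648 and 849.6 in the model libraries and 1159, 787 and 860.0 in the DSS libraries, and Cyp2d5 at 316, 174 and 286 CPM in the control libraries, 362, 339 and 429 in the model libraries and 616, 344 and 389.7 in the DSS libraries. For both, the control libraries lay below all DSS libraries, with log2 fold changes of 0.61 (SE 0.163, FDR 0.0559) and 0.79 (SE 0.289, FDR 0.15). The value of Cyp2d5 was 0.50 without DSS library 1, and its separation was lost by library size alone. The Cyp2d genes are near copies of each other, so the split of reads among them is uncertain.

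In the remaining subfamilies of family 2 no gene was called, with 0 of them at an FDR of at most 0.05. Cyp2j4, which makes epoxides from arachidonic acid, was at 22.5, 37.5 and 40.1 CPM in the control libraries, 38.2, 22.8 and 24.7 in the model libraries and 61.5, 41.3 and 45.7 in the DSS libraries, and its DSS libraries lay above the model libraries by a log2 fold change of 0.80 (SE 0.237, FDR 0.384). That value ran from 0.60 to 1.07 when 1 library was left out. Cyp2j10, the other Cyp2j gene, was at 106, 99 and 66.2 CPM in the control libraries, 96.7, 79.9 and 95.4 in the model libraries and 110.1, 94.9 and 78.2 in the DSS libraries, with full overlap. Cyp2u1, which acts on long-chain fatty acids, was at 5.5, 8.38 and 6.25 CPM in the control libraries, 2.54, 5.45 and 3.69 in the model libraries and 5.63, 3.07 and 2.81 in the DSS libraries. Both fructose groups had lower means, with log2 fold changes of -0.80 (SE 0.311, FDR 0.321) for model and -0.81 (SE 0.295, FDR 0.132) for DSS over control. Cyp2r1, a vitamin D 25-hydroxylase, was at 10.9, 11.9 and 9.17 CPM in the control libraries, 5.51, 8.34 and 12.1 in the model libraries and 8.39, 8.25 and 8.06 in the DSS libraries, and its log2 fold change of DSS over control was -0.38 (SE 0.147, FDR 0.154). Cyp2f4, known from lung, was at 51, 57.1 and 58.1 CPM in the control libraries, 64.7, 51.8 and 64.5 in the model libraries and 69.4, 51.7 and 60.2 in the DSS libraries. Cyp2s1 was at 0.602, 0.892 and 0.93 CPM in the control libraries, 1.81, 1.09 and 0.739 in the model libraries and 0.975, 1.13 and 1.77 in the DSS libraries, and Cyp2t1 at 35.9, 31.5 and 41.3 CPM in the control libraries, 39.7, 32.1 and 36.1 in the model libraries and 46.6, 38.6 and 50.4 in the DSS libraries. These last 3 had no comparison at an unadjusted p under 0.05.

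The Cyp4a genes hydroxylate medium and long fatty acids and are textbook targets of PPAR alpha. Their sum was 203, 353 and 291 CPM in the control libraries, 915, 298 and 1023 in the model libraries and 538, 864 and 303 in the DSS libraries. In both fructose groups 1 library reached only the level of the control group.

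Cyp4a2, a male-predominant form, was at 7.87, 27.4 and 25.7 CPM in the control libraries, 306, 32.3 and 473 in the model libraries and 155, 474 and 92.3 in the DSS libraries. Every fructose library lay above every control library, but within the model group the levels ran from 32.3 to 473 CPM. The log2 fold change was 3.74 (SE 0.914, FDR 0.13) for model and 3.57 (SE 0.895, FDR 0.0909) for DSS over control. When 1 library was left out, these ran from 3.07 to 4.27 and from 2.61 to 3.97. Cyp4a3 was at 112, 203 and 168 CPM in the control libraries, 406, 189 and 367 in the model libraries and 275, 291 and 153 in the DSS libraries, with model library 2 within the range of control, and a log2 fold change of 0.99 (SE 0.322, FDR 0.248) for model over control. That value ran from 0.77 to 1.26 when 1 library was left out. Cyp4a1 was at 81.3, 120.5 and 94.6 CPM in the control libraries, 201, 77 and 175 in the model libraries and 94.2, 96.6 and 56.4 in the DSS libraries, and its log2 fold change of DSS over model was -0.87 (SE 0.36, FDR 0.604). Cyp4a2 and Cyp4a3 are nearly identical in sequence, so reads may have moved between them.

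The 17 tested targets of PPAR alpha outside the P450 genes were 7 higher and 0 lower in the model group at an unadjusted p under 0.05, with a median log2 fold change of 0.43 and none called by edgeR. In the DSS group against control 6 were higher and 1 lower, with a median of 0.22. In DSS against model 1 was higher and 3 lower, with a median of -0.10 and 3 of the 17 on the higher side. The shares of all genes at that p were 6.84% higher and 6.36% lower in the model group, and 11.9% and 12.5% in the DSS group against control. They were 3.54% and 4.49% in DSS against model. Cpt1a, which carries fatty acids into mitochondria, was at 109.6, 98.2 and 108 CPM in the control libraries, 141, 138 and 98.2 in the model libraries and 325, 281 and 321 in the DSS libraries. It rose in the DSS group over control by a log2 fold change of 1.55 (SE 0.116, FDR 0.000271), while the model and control libraries overlapped. DSS over model was 1.30, which was not called. Angptl4, an inhibitor of lipoprotein lipase, was at 62, 58.2 and 169 CPM in the control libraries, 273, 106 and 224 in the model libraries and 49.1, 42.8 and 53.3 in the DSS libraries, and the DSS group lay below the model group by a log2 fold change of -2.05 (SE 0.323, FDR 0.0496). Ppara, the receptor gene, was at 24.9, 24.1 and 18.3 CPM in the control libraries, 8.3, 34.5 and 32.3 in the model libraries and 42.1, 24.9 and 37.8 in the DSS libraries, with a log2 fold change of 0.63 (SE 0.204, FDR 0.102) for DSS over control.

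**Figure D4:**
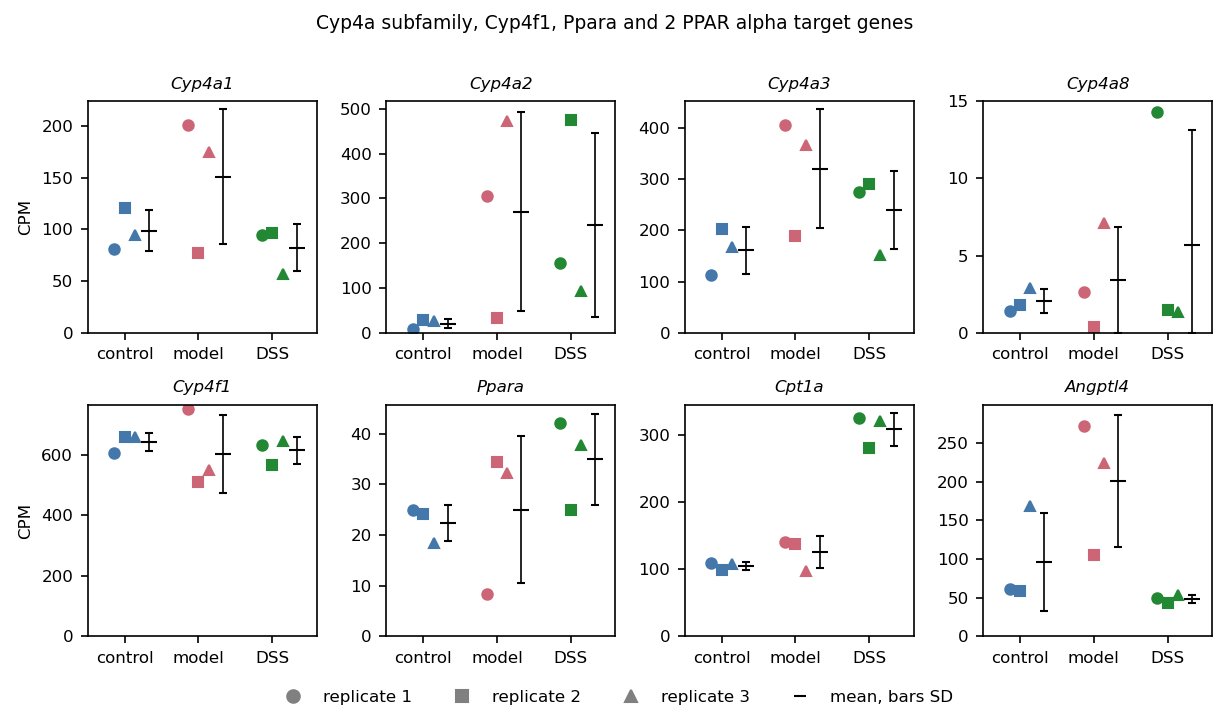
CPM of each library (points, shape by replicate number) in the control, model and DSS groups for the 4 Cyp4a genes, Cyp4f1, Ppara, Cpt1a and Angptl4; the dash and bar beside each group are its mean and SD, n = 3, and every axis starts at 0. For Cyp4a2, model library 2 sits at 32.3 CPM beside 306 and 473 in the other model libraries.

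The Cyp4f genes, which inactivate leukotrienes and prostaglandins, had a sum of 862, 923 and 925 CPM in the control libraries, 1057, 757 and 865 in the model libraries and 981, 856 and 952 in the DSS libraries, and the groups overlapped. Cyp4f1 was at 605, 659 and 659 CPM in the control libraries, 750.3, 510.3 and 549 in the model libraries and 633, 564 and 645 in the DSS libraries. Of the 5 tested in the DSS group, Cyp4f4 and Cyp4f39 were higher than control at an unadjusted p under 0.05, by 0.35 and 0.49 on the log2 scale. Over all genes 11.9% were higher at that p. Cyp4b1 was at 11.1, 6.66 and 10.9 CPM in the control libraries, 8.65, 13.4 and 8.99 in the model libraries and 11.9, 9.44 and 10.3 in the DSS libraries, and Cyp4v3, a fatty acid hydroxylase, at 261, 72.3 and 272 CPM in the control libraries, 324, 162 and 301 in the model libraries and 301, 162 and 237 in the DSS libraries. Control library 2 was the lowest of the 9 for Cyp4v3, and the groups overlapped.

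The spread between libraries was wider for the P450 genes than for the table as a whole. Among the 41 with a mean count of at least 10, the coefficient of variation had a median of 22.7% among control, 29.4% among model and 20.2% among DSS libraries, against 12.8%, 19.9% and 13.6% over all such genes. It was over 50% for 8, 7 and 4 of them, where 4.80%, 10.3% and 4.93% of all genes were that variable. Cyp2c12 and Cyp4a2 were among these in all 3 groups.

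A list of 8 genes held the electron donors and binding partners of the P450 enzymes. Por, the oxidoreductase that supplies their electrons, was at 247, 259 and 258 CPM in the control libraries, 71.9, 85.7 and 76.8 in the model libraries and 93.9, 97.1 and 109 in the DSS libraries. All 6 fructose libraries lay far below the 3 control libraries. Por fell in the model group by a log2 fold change of -1.71 (SE 0.13, FDR 0.00282) and in the DSS group against control by -1.36 (SE 0.11, FDR 0.000384); DSS over model was 0.36 (SE 0.13, FDR 0.523). Leaving out model library 3, or any 1 control library, moved the FDR of the first to between 0.0175 and 0.0234. Por was the only one of the 8 genes on the electron donor list called in the model group, where 0.04% of all genes were called lower.

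Cyb5r3, the cytochrome b5 reductase, was at 394, 345 and 361 CPM in the control libraries, 325, 225 and 269 in the model libraries and 218, 200.2 and 205 in the DSS libraries, lowest in the DSS group. It fell against control by a log2 fold change of -0.83 (SE 0.111, FDR 0.00425), a call lost when any 1 library was left out. Cyb5b, a mitochondrial cytochrome b5, was at 214, 235 and 183 CPM in the control libraries, 133, 172 and 171 in the model libraries and 135, 138 and 159.9 in the DSS libraries, with -0.55 (SE 0.13, FDR 0.0367). Pgrmc1 and Pgrmc2, heme-binding proteins that can bind P450 enzymes, lay on the other side. Pgrmc1 was at 985, 1085 and 1121 CPM in the control libraries, 1614, 1207 and 1395 in the model libraries and 1665, 1627 and 1651 in the DSS libraries and Pgrmc2 at 116, 113 and 101 CPM in the control libraries, 251, 140.1 and 180.2 in the model libraries and 143, 167 and 167 in the DSS libraries. The log2 fold changes of DSS over control were 0.63 (SE 0.117, FDR 0.0172) and 0.52 (SE 0.113, FDR 0.028). The electron donor list thus split into 2 called lower and 0 called higher, and into 3 lower and 2 higher at an FDR of at most 0.05. Over all genes 0.823% were called lower and 0.657% higher, and 3.29% were lower and 3.07% higher at that FDR.

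Of the 12 genes of heme synthesis and breakdown, 1 was called, lower in the DSS group than in control. Over all genes 0.823% were called lower there. Alas1, the rate-limiting enzyme of heme synthesis in liver, was at 220.5, 211 and 397 CPM in the control libraries, 100.5, 114 and 111 in the model libraries and 77.3, 80.4 and 65.6 in the DSS libraries. The 3 groups did not overlap, with control highest and DSS lowest. Alas1 fell in the DSS group against control by a log2 fold change of -1.90 (SE 0.256, FDR 0.00783), and the model group had -1.35 (SE 0.248, FDR 0.0644). The model value was -0.99 without control library 3, the highest one. That of the DSS group ran from -2.05 to -1.54 when 1 library was left out. The call was lost without any DSS library, or without control library 1 or 2.

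P450 genes outside families 1 to 4 gave 11 tested genes. Cyp8b1, which makes the sterol 12-alpha-hydroxyl group of cholic acid, was at 115, 193 and 131 CPM in the control libraries, 375, 370.2 and 499.9 in the model libraries and 785, 795 and 799 in the DSS libraries. The groups stood apart in the order control, model, DSS, and it rose in the DSS group over control by a log2 fold change of 2.43 (SE 0.193, FDR 0.000367). The model group had 1.50 (SE 0.227, FDR 0.0307). Cyp39a1, an oxysterol 7-alpha-hydroxylase, was at 227, 273 and 276 CPM in the control libraries, 246, 221 and 234 in the model libraries and 186, 169 and 178 in the DSS libraries, lowest in the DSS group, with -0.55 (SE 0.122, FDR 0.0303) against control. Of the 11, 2 were higher and 3 lower than control in the DSS group at an unadjusted p under 0.05. All genes had 11.9% and 12.5% there. In the model group 2 were higher and 5 lower, against 6.84% and 6.36% of all genes.

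**Figure D5:**
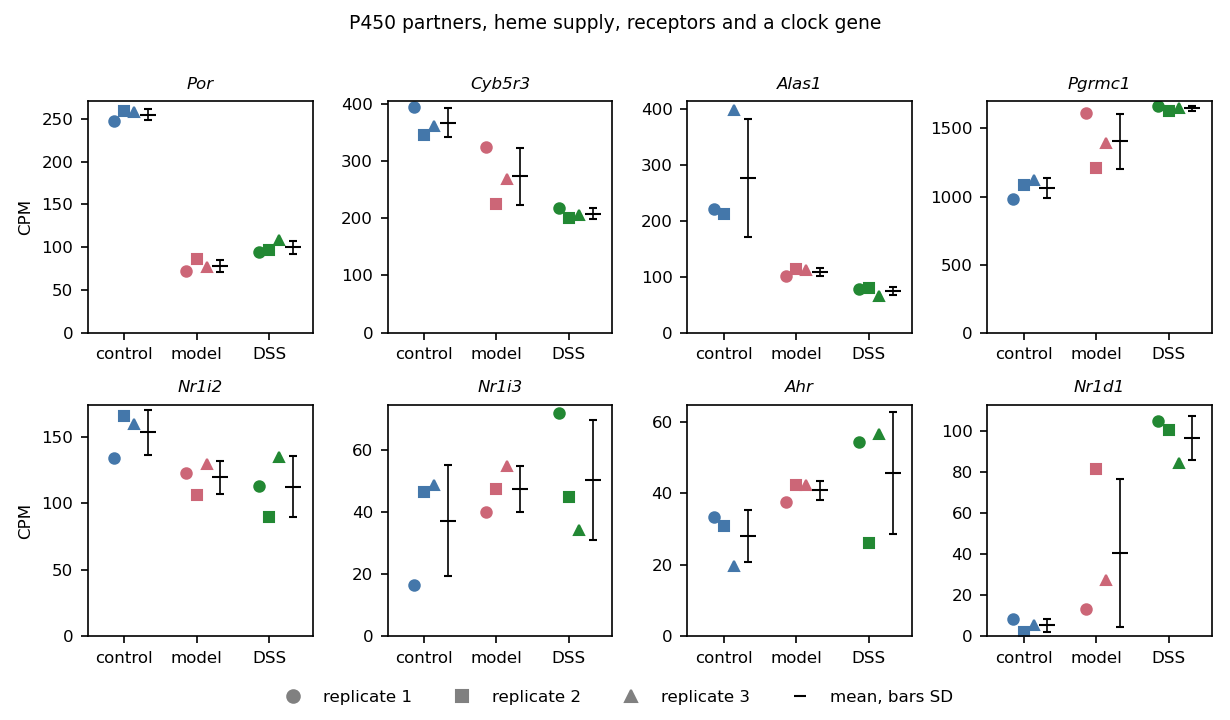
CPM of each library (points, shape by replicate number) in the control, model and DSS groups for Por, Cyb5r3, Alas1, Pgrmc1, the receptor genes Nr1i2, Nr1i3 and Ahr, and the clock gene Nr1d1; the dash and bar beside each group are its mean and SD, n = 3, and every axis starts at 0. Por, at 247 to 259 CPM in the control libraries, sits at 71.9 to 109 in all fructose libraries.

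Genes of the circadian clock, which set the daily rhythm of several P450 genes, of Por and of Alas1, were read from a list of 6. None was called by edgeR. In the DSS group 2 were higher and 1 lower than control at an FDR of at most 0.05. All genes had 3.07% and 3.29%. At an unadjusted p under 0.05, 3 were higher and 1 lower, against 11.9% and 12.5% of all genes. At that p, 1 was higher and 2 lower in model against control, against 6.84% and 6.36%. In DSS against model 1 was higher and 0 lower, against 3.54% and 4.49%. Nr1d1, a repressor within the clock, was at 8.55, 2.02 and 5.65 CPM in the control libraries, 13.2, 81.5 and 27.3 in the model libraries and 105, 101 and 84.4 in the DSS libraries, with all DSS libraries above all others (above model only with TMM factors) and a log2 fold change over control of 4.12 (SE 0.474, FDR 0.0111). Nr1d2, its relative, was at 42.4, 22.2 and 33.8 CPM in the control libraries, 27, 69.7 and 40.8 in the model libraries and 82.6, 78.7 and 58 in the DSS libraries, with 1.15 (SE 0.241, FDR 0.0351). Hlf, an activator of detoxification genes, was at 11.4, 12 and 13.4 CPM in the control libraries, 4.73, 7.64 and 7.39 in the model libraries and 5.85, 3.4 and 6.5 in the DSS libraries, with all control libraries highest and -1.22 (SE 0.229, FDR 0.0169). The hour at which each rat was killed is not given in the sources used here, and the part of the clock in the P450, Por and Alas1 values was not tested.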

How the data were processed

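Liver mRNA of control, model and DSS groups (3 libraries each, grouped by their labels) was sequenced on an Illumina platform. The authors aligned the reads with HISAT2 and used HTSeq 0.6.1, not strand-specific, to count those on exons. The submitters' processing notes name Rnor_6.0. The deposited values are the raw counts of each gene, not normalized. Overlapping genes on opposite strands and near-identical P450 copies can therefore share or lose reads. A second table, of assembled transcripts, was not used because its unit is not given. The labels name the mouse as organism but the Wistar rat as strain. The Ensembl identifiers are rat ones, and the samples were treated as rat. The label DSS was read as the 50% methanol extract, the group the methods name for transcriptomics. No rat genome was used here, so no sequences or coordinates are given, and gene names are those of the count table.

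Each comparison was fitted in edgeR 4.0.16 (R 4.3.3) on its own 6 libraries over the whole table, with filterByExpr, TMM and the two-sided robust quasi-likelihood test, and p-values were adjusted over all genes tested (Benjamini-Hochberg FDR). CPM were computed with TMM factors over the 9 libraries, and SE as the fitted log2 fold change over the root of F. Alternatives were other normalizations and filters, DESeq2 1.42.0, 1 fit of all libraries, a replicate block, other thresholds and leaving out each library. The test was tried on simulated counts. The members and gene lists were chosen with earlier results of these data known. Named are members called or at an FDR of at most 0.05, members with a mean count of at least 50, no overlap and a log2 fold change of 0.5 or more either way, the member of each subfamily with the highest mean CPM (without regard to length), and of the lists Por, the receptor genes and genes at an FDR of at most 0.05. Cyp1a1, Cyp2c7, Cyp2c12, Cyp3a9, Cyp4a1, Cyp4f4, Cyp4f39, Cyp4a8 and Glul were named after their values were seen. A gene on the PPAR alpha list is not reported here by name. Nr3c1, Cyp5a1, Cyp24a1, Aldh3a1, Ugt1a6, Abcb1a, Ugt2b1, Acaa1b, Cyp2a2 and Cyp3a2, which the lists held, and 15 marker genes were not analysed here.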

Additional observations from a re-analysis of the deposited data

How the results depend on the processing

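Each count and median was recomputed under other settings. With library size alone, which moved the median of all genes by -0.14 in both comparisons with control, the median of the P450 genes for model over control reversed to -0.0276, their summed difference reversed to -1724 CPM, the summed difference of DSS over control moved to 2476 CPM, and 2 genes were called higher and 2 lower in DSS against control. Leaving out 1 library gave medians for model over control of -0.0271 (without model library 1) to 0.163, summed differences of -1050 to 2202 CPM, negative without model library 1 or 3 or control library 1, and 6 (without control library 2) to 16 (without model library 2) genes at an unadjusted p under 0.05. DESeq2 called 2 genes lower in model against control, 4 higher in DSS against model, and 8 higher and 2 lower in DSS against control. Without the filter on low counts, 2 were called higher in DSS against model, and 2 higher and 2 lower against control. An FDR of 0.05 gave 2 higher in DSS against model, and 4 higher and 2 lower against control. DSS against control had 0 called lower with DESeq2 size factors or with all 9 libraries in 1 fit. Leaving out 1 library gave 0 to 1 called higher in DSS against model (1 without model library 1), and for DSS against control 1 to 2 called higher (2 without control library 2 or 3), 0 to 1 called lower (0 without any DSS library or without control library 2 or 3), and 14 (without control library 2) to 21 genes at an unadjusted p under 0.05. The summed difference of 4084 CPM in DSS against model ran from 2111 (without model library 2) to 5362, and that of 4312 CPM in DSS against control from 3064 to 5073, when 1 library was left out. The cause of these shifts was not tested. Single genes were followed only for named genes in comparisons where their unadjusted p was under 0.05, which gave 78 results. Of their 1011 values under alternatives, 920 kept their direction and side of the threshold, 36 lost the call, 55 gained it and 0 reversed. Most of these results were not called to begin with. Because of this selection, few reversals could occur, and the tally does not measure how stable the P450 genes are in general.

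Libraries of the same replicate number did not deviate together (correlations of -0.23 to -0.02), so the numbers were not read as pairs. With replicate number as a block, 7, 9 and 21 P450 genes passed an unadjusted p under 0.05 in model against control, DSS against model and DSS against control, where 10, 10 and 22 did without it, and the FDR of Por in the model group was 0.0599.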

Other observations

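Single libraries stood apart for some P450 genes. Cyp3a9 had 138 counts in DSS library 3 and 818 to 2299 in the others. Cyp4v3 was at 72.3 CPM in control library 2, against 162 to 324 in the others. Cyp4a8, a Cyp4a form, had 264 counts in DSS library 1 and 6 to 116 in the others. In Cyp2c7, model library 3 was at 2457 CPM and the others at 834 to 1408.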
